A study of Mus musculus with 35 samples.

Results

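The Cy5 channel of these 2-colour arrays held reference RNA from pancreatic lymph node of NOD.B10Sn-H2b/J (NOD.B10) mice, and the 10-day arrays are compared here with the 12-, 16- and 20-week arrays in that channel alone. Membership was by age in the array titles: 25 of the 35 arrays entered, 7 from 10 days and 18 from later ages, of which 7 were from 12 weeks, 6 from 16 weeks and 5 from 20 weeks. The other 10 arrays, 6 from 4 weeks and 4 from 8 weeks, serve as a description only. On every array the Cy3 channel held pancreatic lymph node RNA of a female NOD/LtJ (NOD) mouse of the stated age, a strain that develops autoimmune diabetes. The NOD.B10 mice carry the NOD background with the H2b haplotype of the major histocompatibility complex and are labelled as the control. The series text names NOD.B10 animals of 10 days (10 mice) and of 20 weeks (10 mice) as controls, but the labels leave unstated what pool each array received. Neither strain is given a treatment in the labels, and no array had its dyes swapped. Since arrays of one age may share 1 pooled RNA, p-values measure the spread between arrays and not between mice.

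The pancreatic lymph node lies against the pancreas and collects its lymph. It is where T cells first meet islet antigens in NOD mice. Its own cells are T cells, B cells, antigen-presenting cells, stroma and high endothelial venules, the vessels through which lymphocytes enter. Liver hepatocytes secrete plasma proteins such as albumin, and before and shortly after birth they also make alpha-fetoprotein while the liver hosts blood cell formation. Pancreatic acinar cells make digestive enzymes, and islets make hormones. In a bulk RNA sample, fewer cells of a type and less RNA per cell cannot be told apart. A level below is the log2 of the Cy5 processed signal after quantile normalisation across the 25 arrays, and a difference is the later level minus the 10-day level. A gene was called where limma's adjusted p was under 0.05 and the difference was at least 1 in size.

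The age comparison was almost entirely confounded with how the arrays were read. All 7 of the 10-day arrays were read on 1 day and extracted with Feature Extraction 8.1.1.1, while 17 of the 18 later arrays were read on another day and extracted with version 8.5.1.1. The versions are those that the file headers give for the grid placement step of that software. Replicate 7 of 12 weeks alone links the versions, with 8.1.1.1 on a further scanner and day. Scanner was shared: the one that read the 10-day arrays also read 7 later arrays, all of version 8.5.1.1, and on these arrays alone 5366 genes were called, 2203 higher and 3163 lower. The share of probes well above background in Cy5 ranged from 71.0% to 90.0% on the 10-day arrays and from 36.1% to 75.9% on the later ones, and replicate 7 of 12 weeks had 69.5% against 36.1% to 47.1% on the other 12-week arrays. Over all 35 arrays the first principal component of the Cy5 channel carried 41.4% of the variance and divided the versions, with loadings of 0.23 to 0.27 on version 8.1.1.1 and of -0.15 to -0.03 on version 8.5.1.1. Each list below is therefore given with the number of calls that also passed with version as a block in the fit. That blocked estimate rests on replicate 7 of 12 weeks, and a blocked fit over all 35 arrays draws also on 3 version 8.1.1.1 arrays of 8 weeks. The part of processing in any other call was not tested.

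**Figure D1:**
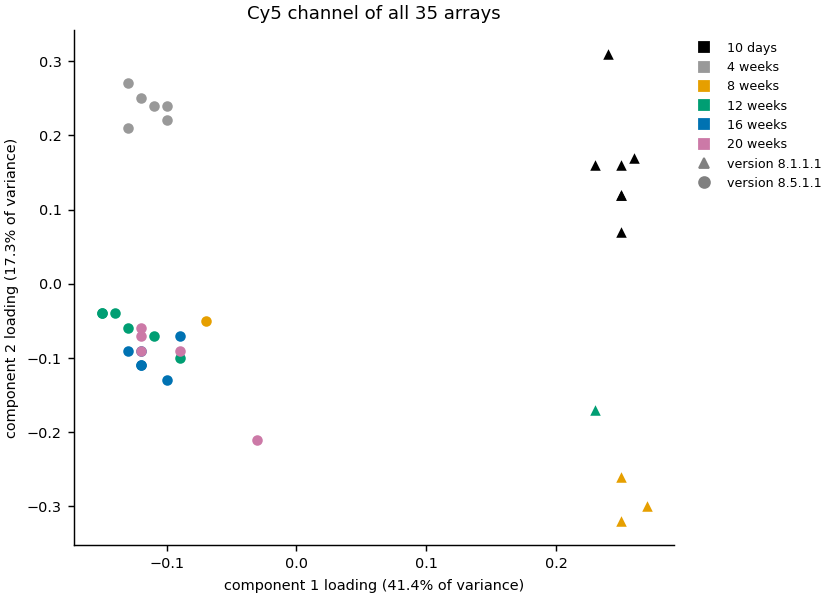
Loadings of the 35 arrays on the first 2 principal components of the Cy5 channel (18315 genes), coloured by age; triangles are Feature Extraction 8.1.1.1 and circles 8.5.1.1. The triangles lie at 0.23 to 0.27 on the first component, apart from the circles.

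Of 22417 genes tested, 5238 (23.4%) were called, 2334 (10.4%) higher and 2904 (13.0%) lower on the later arrays, and for 2746 genes (12.2%) the groups did not overlap. By adjusted p alone 60.9% of genes passed. With version as a block 1793 genes were called, and 15.3% of genes over 35 arrays. Of the 5238 calls, 918 (4.10% of the genes tested) also passed with the block in the same direction, 457 higher (2.04%) and 461 lower (2.06%), and over 35 arrays 644 higher (2.87%) and 744 lower (3.32%). The median difference of all genes was -0.04, 0.04 with the block. On replicate 7 of 12 weeks, which shares the version of the 10-day arrays, 1951 of 2289 genes called higher (85.2%) and 1652 of 2867 called lower (57.6%) lay on the called side of the 10-day mean. Calls among bright genes also passed with the block more often, at 25.2% in the brightest 7472 genes against 7.28% in the dimmest 7473. Of those dimmest genes 107 were called higher and 910 lower. A tested probe had to be well above background on at least 7 arrays, the number at 10 days. Genes dim on later arrays could therefore enter through the 10-day group alone. With each array centred on its median instead, 77.8% of calls were higher (44.6% in the comparison above) and the median difference was 0.32, so small differences depend on the scaling.

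The lists with the largest median differences were liver genes, higher at 10 days, and acinar enzyme genes, higher later, with and without the version block. Antigen-presentation genes of major histocompatibility complex (MHC) class II came next without the block (1.78), but with it (0.69) their median was smaller in size than those of neutrophil (-1.64), imprinted growth (-1.61) and matrix genes (-1.60), among others. The promoters of members that moved together are shown because they carry letters known from their tissues: the HNF1 recognition letters GTTAAT of liver genes, the E-box CACCTG used by the acinar factor PTF1, and the Y box CTGATTGG of class II genes. Each is 300 bases long, mostly upstream of the annotated start, in the strand of the gene, from RefSeq on GRCm38.p6, the reference strain and not NOD.B10; capitals mark the match, and both strands were searched. Afp and Alb are neighbours on chromosome 5, at chr5:90490464-90490763 and chr5:90460620-90460919, both on the plus strand. Cela1 lies at chr15:100687871-100688170, Cela2a at chr4:141825956-141826255 and H2-Aa at chr17:34287774-34288073, all on the minus strand.
Afp: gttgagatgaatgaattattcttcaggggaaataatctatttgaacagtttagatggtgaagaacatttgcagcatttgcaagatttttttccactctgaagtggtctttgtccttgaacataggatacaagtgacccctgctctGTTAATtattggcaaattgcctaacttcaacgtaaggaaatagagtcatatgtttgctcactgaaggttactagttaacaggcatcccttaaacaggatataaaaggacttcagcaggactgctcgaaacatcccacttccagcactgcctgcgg
Alb: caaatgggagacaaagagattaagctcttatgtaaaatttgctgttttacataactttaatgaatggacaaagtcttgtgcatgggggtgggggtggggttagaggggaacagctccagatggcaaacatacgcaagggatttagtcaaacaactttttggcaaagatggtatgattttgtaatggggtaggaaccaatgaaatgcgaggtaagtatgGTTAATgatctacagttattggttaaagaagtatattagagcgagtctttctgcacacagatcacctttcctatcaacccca
Cela1: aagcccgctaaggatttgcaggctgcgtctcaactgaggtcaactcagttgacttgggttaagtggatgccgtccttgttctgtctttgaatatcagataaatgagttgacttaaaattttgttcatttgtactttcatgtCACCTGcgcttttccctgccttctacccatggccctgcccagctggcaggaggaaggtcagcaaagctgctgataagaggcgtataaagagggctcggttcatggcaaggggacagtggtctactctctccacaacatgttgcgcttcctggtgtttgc
Cela2a: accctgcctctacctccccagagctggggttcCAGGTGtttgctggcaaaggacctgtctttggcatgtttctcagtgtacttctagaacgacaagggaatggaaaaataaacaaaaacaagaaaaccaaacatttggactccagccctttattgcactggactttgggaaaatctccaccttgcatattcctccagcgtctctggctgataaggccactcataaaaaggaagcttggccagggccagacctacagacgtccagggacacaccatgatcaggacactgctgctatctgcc
H2-Aa: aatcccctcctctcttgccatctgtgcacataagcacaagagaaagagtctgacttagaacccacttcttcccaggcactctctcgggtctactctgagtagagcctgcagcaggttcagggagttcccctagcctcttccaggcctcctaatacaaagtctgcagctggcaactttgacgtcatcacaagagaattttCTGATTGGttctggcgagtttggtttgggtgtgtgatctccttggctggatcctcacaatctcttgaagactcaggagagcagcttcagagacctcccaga
GTTAAT was found in 9 of the 18 liver-list members with a promoter in the table, against 7.10% of 32851 promoters. CACCTG was found in 16 of 28 acinar-list members with a promoter (57.1%), against 20.2% of all promoters. The Y box was found in 3 of 8 such class II members (37.5%), against 4.10%. A member counted if any of its promoters held the letters, while the shares of all count single promoters, so the units differ. A match describes the letters and not a bound site.

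Liver plasma-protein genes were far higher in the 10-day reference. Of 21 measured members of the liver list, 19 were lower later and 1, Vtn (vitronectin), was higher by 1.52. All 19 and Vtn also passed with the version block, and the median difference was -4.59 (-4.91 with the block). The mean level of the list was 13.19 ± 0.20 (SD, n = 7) at 10 days, 8.95 ± 0.16 (SD, n = 7) at 12 weeks, 9.17 ± 0.11 (SD, n = 6) at 16 weeks and 8.74 ± 0.04 (SD, n = 5) at 20 weeks. Replicate 7 of 12 weeks was at 8.62, so the array of the same version as the 10-day arrays was the lowest of its age. Of the called members, 9 were well above background on fewer than 9 later arrays, which makes their later levels imprecise. Such members could pass the filter on signal through the 10-day arrays alone. For them a higher level at 10 days may have been a condition of being tested.

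Afp encodes alpha-fetoprotein, the main plasma protein of the fetus. Its 10-day levels were 16.61, 16.69 and 17.04 (lowest, median, highest; n = 7), and its later levels 7.10, 9.08 and 9.47 (n = 18). Every 10-day array stood above every later array, by a difference of -7.83 ± 0.21 (SE), 227-fold (limma adjusted p = 2.04e-21), and replicate 7 of 12 weeks read 8.06. Alb encodes albumin, and its levels were 16.88, 17.21 and 17.33 at 10 days (6 arrays, 1 without a value) against 8.14, 9.67 and 10.35 later, 206-fold apart (-7.69 ± 0.26, limma adjusted p = 7.22e-19). Ahsg encodes fetuin-A, a plasma inhibitor of calcification. It read 18.93, 19.03 and 19.09 at 10 days against 8.86, 10.24 and 11.17 later, a difference of -8.88 ± 0.25 (472-fold, limma adjusted p = 3.37e-21). In none of these 3 genes did the groups overlap. The clotting genes Fgb (fibrinogen beta, -5.98), Serpinc1 (antithrombin, -5.10) and F2 (prothrombin, -4.70) were lower later too. Enzymes of liver metabolism outside the list, Ces1c (carboxylesterase, -5.80) and Fbp1 (fructose bisphosphatase, -4.47), did the same. F12 (coagulation factor XII), Dmgdh (a mitochondrial enzyme of choline breakdown) and Cyp2d34 (a cytochrome P450) were well above background on all 7 of the 10-day arrays and on none of the later 18, and were at least 4.08-fold, 4.03-fold and 3.08-fold higher at 10 days. Their probes passed the filter on signal only through the 10-day arrays, so a higher level there was a condition of being tested. These bounds set the 10-day mean against the higher of the probe's own later signal and the lowest signal well above background on each array.

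Growth genes of fetal and newborn tissue were also higher at 10 days. Of 14 measured imprinted growth genes, 8 were lower later, 7 of them also with the version block, and none was called higher; the median difference was -1.22 (-1.61 with the block). Igf2, the fetal insulin-like growth factor, was at 14.08, 14.36 and 14.77 at 10 days and at 8.07, 8.95 and 9.08 later, with no overlap (-5.50 ± 0.12, 45.3-fold, limma adjusted p = 2.59e-23). Mest, an imprinted hydrolase gene, was at -5.00, Dlk1, a membrane regulator of fat cell differentiation, at -2.94, and Meg3, a noncoding RNA of the Dlk1 domain, at -1.74. The other Meg3 probes, all dimmer, were not called (-0.66 to -0.22). The noncoding H19 was well above background on 2 later arrays only, so its probe passed the filter on signal mainly through the 10-day arrays. Its difference of -3.22 became -1.64 with the block, where limma's adjusted p was 0.135. Of 9 oncofetal genes, 4 were lower, among them Gpc3, the surface proteoglycan glypican-3 (-2.46), and 2 also passed with the block.

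Extracellular matrix genes were lower in the later reference as well. Of 29 measured members, 18 were lower, 16 of them also with the block, and 1 was higher, the collagen-modifying enzyme P4ha1 (1.43; 0.10 with the block). Col1a1, the main chain of type I collagen, was at 16.86, 17.13 and 17.42 on 6 of the 10-day arrays (1 without a value) and at 12.61, 13.39 and 14.36 later. The groups did not overlap, at -3.78 ± 0.20 (13.7-fold, limma adjusted p = 2.98e-14). Other Col1a1 probes, dimmer ones, were at -1.16 (called) and -0.34 (not called). Serpinh1, the collagen chaperone, had a difference of -2.96 and Col3a1, type III collagen, of -3.16. A dimmer Col3a1 probe was not called (-0.56). The mean level of the list was 11.48 to 11.74 at 10 days and 10.13 to 10.72 later. Cell cycle genes moved less: 13 of 47 were lower, 8 also with the block, and the proliferation marker Mki67 was not called at -0.51. Of 16 blood endothelium genes 4 were lower, 1 also with the block, with Cdh5, the endothelial cadherin, at -2.68. A dimmer Cdh5 probe was not called (-0.64).

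Part of the neutrophil and erythroid genes were lower later as well. Of 19 neutrophil granule genes, 9 were lower later and each also passed with the block; the median difference was -0.97 (-1.64 with it). S100a8, a subunit of the neutrophil protein calprotectin, was at 15.67, 15.88 and 16.12 at 10 days and at 12.06, 12.47 and 13.65 later, without overlap (-3.11 ± 0.24, 8.64-fold, limma adjusted p = 2.25e-11). Camp, the antimicrobial cathelicidin, had a difference of -2.90. The largest difference of any named gene belonged to Cstdc6, a member of the stefin A family of protease inhibitors found in neutrophils. It read 17.61, 17.88 and 18.33 at 10 days against 8.15, 8.67 and 9.38 later (-9.12 ± 0.15, 557-fold, limma adjusted p = 6.90e-26). Its relative Stfa3 was at -6.45, and since stefin genes share sequence, a probe's signal cannot be given to 1 of them with certainty. Of 25 erythroid genes, 10 were lower and 7 also with the block. Hba-a1, alpha globin, fell by 1.68 on the log2 scale (limma adjusted p = 4.46e-10), but by median centring its difference was 0.10. The list of 11 megakaryocyte genes had no call by limma in either direction, and its median difference was -0.19 (-0.76 with the block).

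**Figure D2:**
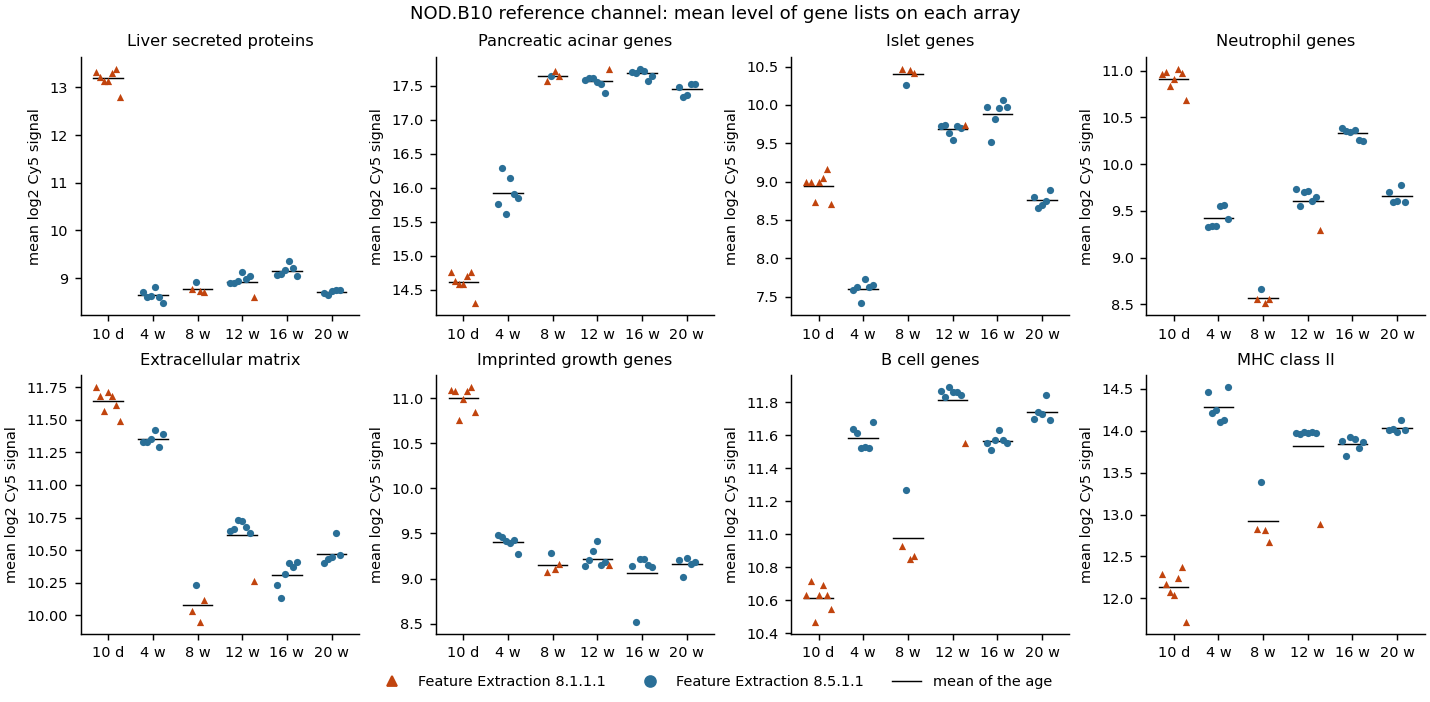
Mean Cy5 level of gene lists (log2 signal, quantile normalised over 35 arrays; members with a value on every array) on each of the 35 arrays by age; triangles are Feature Extraction 8.1.1.1, circles 8.5.1.1, and bars are age means. The liver list falls from 13.19 at 10 days to between 8.64 and 9.15 at every other age, while the acinar list goes from 14.62 to 15.93 at 4 weeks and 17.45 or more from 8 weeks on.

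Acinar enzyme genes were higher in the later reference, with the 10-day arrays already at high signal. Of 32 measured members, 27 were higher and 26 of these also with the block; none was lower. The median difference was 3.44 (3.66 with the block), and for 30 members the groups did not overlap. The list mean was 14.63 ± 0.16 (SD, n = 7) at 10 days, 17.56 ± 0.09 (SD, n = 7) at 12 weeks, 17.67 ± 0.05 (SD, n = 6) at 16 weeks and 17.44 ± 0.07 (SD, n = 5) at 20 weeks. Saturation limits these values: 9 of the called genes were saturated on every later array, so their differences are lower bounds, 21 of the 32 had a saturated spot on at least 1 array, and 4 of the 5 members not called were saturated on most later arrays.

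Cela1 encodes pancreatic elastase 1. Its levels were 12.09, 12.19 and 12.40 at 10 days and 18.49, 19.17 and 19.27 later (17 arrays, 6 of them saturated). The lowest later array was far above the highest of 10 days, and the difference was 6.80 ± 0.11 (limma adjusted p = 4.58e-25). With saturated spots among the later arrays this value, 112-fold, understates the difference, and the second probe of the gene was at 7.56. Pla2g1b, the secreted pancreatic phospholipase, read 7.81, 8.64 and 9.25 at 10 days (n = 6) and 14.57, 15.51 and 15.86 later (n = 17). Its groups also lay far apart (6.86 ± 0.17, 116-fold, limma adjusted p = 5.11e-21), with no saturated spot. Gp2, the main membrane protein of zymogen granules, was higher by 6.53, the elastase Cela2a by 5.63 and the chymotrypsinogen Ctrb1 by 4.37, the last 2 with 4 saturated later spots each. Nupr1, a stress-induced chromatin protein strongly expressed in the injured pancreas, was higher by 5.34 and the trefoil peptide gene Tff2 by 4.21. The kallikrein genes Klk1b3 (4.39) and Klk1b4 (4.91) rose as well, though this multigene family shares sequence.

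Fat cell genes followed. Of 22 measured adipocyte genes, 12 were higher and 8 of them also with the block, and none was lower; the median difference with the block was 0.92. Cfd, the complement factor secreted by fat cells, was at 11.98, 12.17 and 12.32 at 10 days and at 16.28, 16.74 and 17.09 later. No array of either group entered the range of the other (4.59 ± 0.10, 24.0-fold, limma adjusted p = 1.59e-23). Car3, a carbonic anhydrase of fat and muscle, was higher by 3.42, the lipid droplet gene Cidec by 3.91 and the hormone gene Adipoq, adiponectin, by 3.24. Of 8 brown adipocyte genes 3 were higher and 1 lower, and 1 of these also passed with the block, Cox8b (2.94), a subunit of cytochrome oxidase.

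Genes of the node's own immune cells were higher later in part of each list, and fewer passed with the version block. With the block over 35 arrays, 7 MHC class II, 6 B cell, 5 plasma cell and 3 MHC class I genes called higher also passed. For T cell genes that number was 2 and for cytotoxic genes 0. The counts that follow for these lists are those with the block over 25 arrays. MHC class II genes, which present peptides to CD4 T cells, had 10 of 11 members higher, 4 of them also with the block; the median difference of 1.78 became 0.69. H2-Aa, the class II alpha chain, was at 10.75, 11.48 and 11.74 at 10 days and at 12.51, 13.94 and 14.22 later (n = 17). Its lowest later value was that of replicate 7 of 12 weeks, still above all 10-day arrays, and the difference was 2.43 ± 0.17 (5.39-fold, limma adjusted p = 5.99e-12) against 1.09 with the block (limma adjusted p = 0.011). H2-Ab1, the beta chain, was higher by 1.69 and by 1.19 with the block. Ciita, the master activator of class II genes, was higher by 1.78 (1.46 with the block). The class II list mean was 11.71 to 12.37 at 10 days, 12.88 on replicate 7 of 12 weeks and 13.95 to 13.99 on the other 12-week arrays. For MHC class I, 4 of 11 members were higher, 1 of them also with the block, and 1 was lower without it only; H2-K1 was not called (-0.50).

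Of 24 B cell genes, 12 were higher and 4 also with the block (median difference 0.89, and 0.54 with it). The complement receptor gene Cr2 (2.07), the adaptor gene Bank1 (2.36) and Fcmr, the IgM receptor (2.13), were among these 4. A second Cr2 probe was not called (-0.48). Ighm, the IgM heavy chain, was not called (0.16; 14 later arrays). Plasma cell genes were higher in 10 of 13, 2 also with the block. Jchain, which joins IgM and IgA chains, was at 12.00, 12.33 and 12.43 at 10 days and at 14.89, 15.45 and 15.79 later (n = 15), without overlap (3.10 ± 0.12, limma adjusted p = 3.61e-16; 2.62 with the block).

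T cell genes were higher in 11 of 30, 3 also with the block (median difference 0.67, and 0.41 with it). Cd247, the zeta chain of the T cell receptor complex, was higher by 1.81 (1.38 with the block). Cd3e, another chain of that complex, was not called at -0.19 (limma adjusted p = 0.667), and its second probe was at -0.04; Cd3d was higher by 1.58, and by 0.65 with the block. Foxp3, the regulatory T cell factor, was higher by 1.12 without overlap and was well above background on 8 of 18 later arrays; with the block it was at 0.23. Ctla4, an inhibitory receptor, was not called (0.18). Cytotoxic genes were higher in 7 of 18, 1 also with the block, the cystatin gene Cst7 (1.72). The lymphoid precursor genes went down in 4 of 10, 2 also with the block, and 1 was higher without it only, with Vpreb1, the surrogate light chain of early B cells, at -2.52.

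Markers that define the lymph node itself were measured at both ages. None of the 9 high endothelial venule genes was called, and limma's adjusted p was 0.0505 for Glycam1, a secreted mucin of these vessels (-0.37), and 0.00395 for Madcam1, the mucosal addressin (0.49). The stromal chemokines Ccl19 (-0.52) and Cxcl13 (0.40) were below the size limit as well. Aire, the regulator of tissue antigen display, was at 0.50 and overlapped. General lists behaved near the background or under it: ribosomal genes had 5 higher and 3 lower of 37, respiratory chain genes 5 higher and 4 lower of 42, and none of these passed with the block. The 6 mesothelium genes gave no call. So the label of lymph node was met by its markers, while liver markers at 10 days and acinar markers at all ages stood beside them; whether these came from tissue next to the node was not tested.

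**Figure D3:**
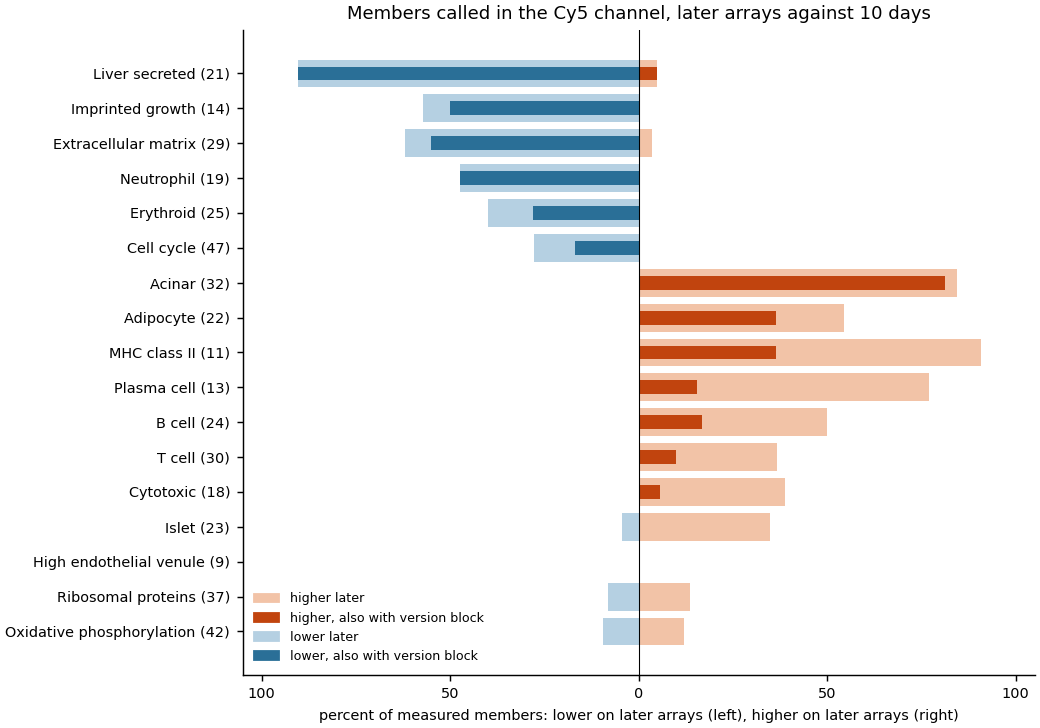
Percent of the measured members of each list (number in brackets) called lower (left) or higher (right) in Cy5 on the later arrays; dark bars are the members also called with Feature Extraction version as a block. Liver, neutrophil and matrix calls stay largely dark on the left (19 of 19, 9 of 9 and 16 of 18), and of the 10 class II calls on the right 4 are dark. The block drawn is that over 25 arrays, and 7 class II calls passed with the block over 35 arrays.

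The later ages were not alike in this channel, though the series text names NOD.B10 animals of 20 weeks as its later controls. Each age was compared with 10 days in 1 fit: 4851 genes were called at 12 weeks (21.6%), 5739 at 16 weeks (25.6%) and 5561 at 20 weeks (24.8%), and these 3 comparisons share the 10-day arrays. A moderated F test among 12, 16 and 20 weeks called 154 genes (0.687%) with age means at least 1 apart, and 219 without replicate 7 of 12 weeks and replicate 2 of 16 weeks, of which 120 were in both. Of 23 islet genes 10 were among them, 7 of 19 neutrophil genes and 4 of 21 liver genes; of 32 acinar genes there were 2, and of the T cell, B cell and class II lists there were none.

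Ins2, an insulin gene, was at 11.62 to 13.12 at 10 days, at 14.09 to 15.84 at 12 weeks, at 15.49 to 16.03 at 16 weeks, and at 12.72, 12.74, 12.78, 12.84 and 13.40 on the 5 arrays of 20 weeks. Of the 20-week arrays 4 thus lay in the range of the 10-day ones and 1 just above it, and all 5 lay below every array of 12 and 16 weeks, with age means 2.82 apart (limma F test, adjusted p = 1.24e-07). Gcg, the glucagon gene, gave 13.20 ± 0.06 (SD, n = 7) at 12 weeks, 13.50 ± 0.19 (SD, n = 6) at 16 weeks and 10.49 ± 0.22 (SD, n = 5) at 20 weeks, and the last differed from 10 days by -0.71 in the normalisation of all 25 arrays. Chga and Chgb, granins of hormone granules, were likewise lowest at 20 weeks, with ranges of 2.42 and 2.28. The islet list was called higher in 8 members and lower in 1, the gut hormone gene Pyy, in the pooled comparison, and none of these passed with the block. With the block over 35 arrays 3 of the higher ones passed. At 20 weeks alone the list's median difference from 10 days was -0.21 against 0.60 for the later ages together.

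Reg3a and Reg3b encode secreted lectins of the injured pancreas and gut. Reg3a was at 12.24 ± 0.45 (SD, n = 7) at 12 weeks, 14.69 ± 0.15 (SD, n = 6) at 16 weeks and 11.11 ± 0.04 (SD, n = 5) at 20 weeks, a range of 3.58 (limma F test, adjusted p = 9.08e-12). The 16-week arrays stood alone, between 14.41 and 14.82. Reg3b was likewise highest at 16 weeks (15.79 ± 0.12, SD, n = 6), with a range of 2.43. Neutrophil genes were less low at 16 weeks: S100a8 was at 12.21, 13.59 and 12.49 at 12, 16 and 20 weeks, and the list mean at 9.62, 10.33 and 9.67. Mup1, a major urinary protein made in liver whose family shares sequence, was at 8.97 to 9.75 on the 20-week arrays and at 6.22 to 8.11 on those of 12 and 16 weeks. Adding the 4- and 8-week arrays, quantile normalised together, the islet list mean was 7.60 ± 0.10 (SD, n = 6) at 4 weeks and 10.40 ± 0.10 (SD, n = 4) at 8 weeks, and the neutrophil list 9.42 and 8.57. The SDs within each age were small beside these differences between ages; whether different pools were used was not tested.

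Within an age the reference channel varied less than the NOD channel. Over all genes the median within-age SD was 0.39 in Cy5 and 0.49 in Cy3, and Cy5 was the smaller for 79.5% of genes. For acinar genes it was 0.24 against 1.96, and for liver genes 0.37 against 0.85. In Ins2 the Cy3 SDs were 1.94, 1.98 and 2.29 at 12, 16 and 20 weeks, against 0.62, 0.19 and 0.28 in Cy5.

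**Figure D4:**
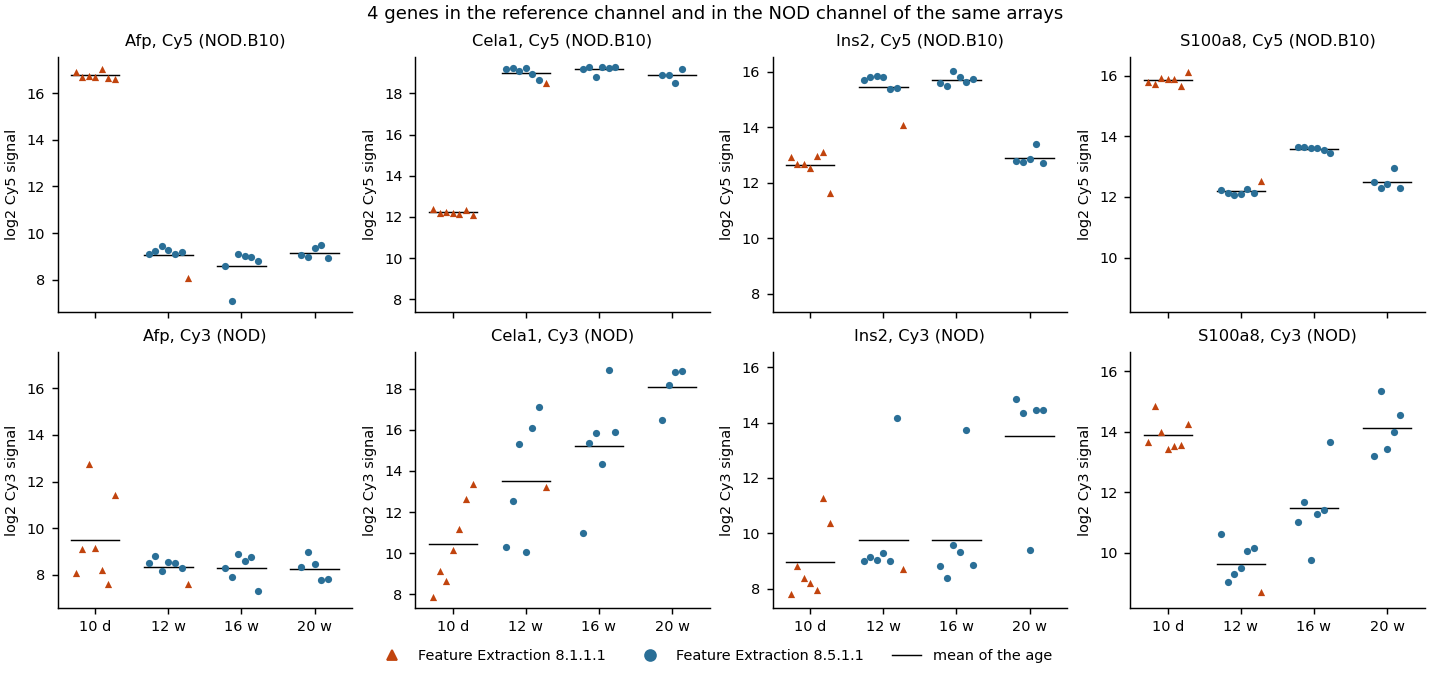
Log2 signal of 4 genes by age in Cy5 (NOD.B10, pooled reference) and Cy3 (NOD), 25 arrays; triangles are Feature Extraction 8.1.1.1, circles 8.5.1.1, bars are age means. Afp in Cy5 goes from 16.75 at 10 days to between 8.59 and 9.16 later, while its Cy3 mean at 10 days is 9.48.

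The NOD channel of the same arrays gave 4932 calls (22.0%; 7.70% higher and 14.3% lower), and the channels were then compared directly. The Cy5 change minus the Cy3 change was called for 738 genes (3.29%), 450 positive (2.01%) and 288 negative (1.28%). For 19 of 21 liver genes the Cy5 difference was the more negative beyond the limits. In Cy3 itself 9 of the 21 were called lower later and 1 higher, with a median difference of -0.76. Ahsg in Cy3 was at 12.01 to 16.96 at 10 days and at 7.20 to 11.23 later, without overlap. Afp in Cy3 was at 7.59 to 12.74 at 10 days and at 7.31 to 8.96 later, so its change there was -1.17 against -7.83 in Cy5, and the change differed by -6.66 (limma adjusted p = 5.55e-10). Fabp1, the liver and gut fatty acid carrier, was lower later in Cy5 (-3.04) and higher in Cy3 (1.42), a contrast of -4.46. Further contrasts were -4.03 for Serpinc1, -3.95 for Ahsg and -3.94 for F2. With the version block 397 genes were called in place of 738, 109 of them shared; Afp was then at -6.84 (limma adjusted p = 0.00177) and Ahsg at -3.42 (limma adjusted p = 0.276).

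Of 32 acinar genes 1 had a called contrast, positive, and the Cy3 median difference was 3.03. Saturation bounds the Cy5 change of many of these genes and their Cy3 levels spread widely within an age, so the test does not show that the channels changed alike. The level itself differed: the Cy3 list mean was 11.60 ± 1.74 (SD, n = 7) at 10 days, 13.09 ± 2.12 (SD, n = 7) at 12 weeks, 14.29 ± 2.17 (SD, n = 6) at 16 weeks and 16.98 ± 0.73 (SD, n = 5) at 20 weeks. Matrix genes were lower in 18 of 29 in Cy3 too, with a median of -1.23 against -1.27, and no member had a called contrast. Class II genes were higher in 8 of 11 in Cy3 too, with a median of 1.54 against 1.78. Of the 11, 1 had a positive called contrast and 1 a negative one. The positive one was H2-Aa, which changed more in Cy5 (contrast 1.71, limma adjusted p = 6.84e-05). With the block its contrast was 1.52 (limma adjusted p = 0.257). H2-Ab1 did not pass (0.01). The strains carry different H2 haplotypes, and how well each probe matches each was not tested.

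Large positive contrasts in genes with no list were those of Gprc5d (an orphan receptor, 3.49), 4921534H16Rik (3.18), Dusp9 (a MAP kinase phosphatase, 2.73), Gal (the neuropeptide galanin, 2.72), Plch2 (a phospholipase C, 2.41), Ncoa3 (a nuclear receptor coactivator, 2.36) and Ccr3 (the eosinophil chemokine receptor, 2.25). Gprc5d was at 9.04, 10.39 and 11.09 at 10 days in Cy5 and at 13.03, 14.13 and 15.83 later. Its groups did not overlap, and replicate 7 of 12 weeks stood at 15.82 against a mean of 13.68 on the other 12-week arrays. Ncoa3 read 17.62 there against 12.89. Other probes of Plch2 (0.05), Ncoa3 (-0.17 and 0.93) and Ccr3 (-0.08) were not called in Cy5. The contrasts of these genes thus rest on 1 probe each. As a description over 35 arrays in Cy3, the correlation with the acinar list level was 0.80 for Gprc5d, 0.75 for 4921534H16Rik and 0.81 for Ncoa3. It was 0.70 for Gal, 0.68 for Dusp9, 0.55 for Ccr3 and 0.38 for Plch2. The points share the array and its dye, and no p is given. Within version 8.5.1.1 the first 3 were at 0.89, 0.90 and 0.86. Gal was then at 0.79, Dusp9 at 0.81, Ccr3 at 0.58 and Plch2 at 0.46.

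Deaf1, a transcription factor gene that regulates tissue antigens in lymph node stroma, was read in the same way. Its brighter probe was at 10.53 to 12.77 at 10 days (n = 6) and at 12.45 to 16.86 later, with overlap (1.65 ± 0.40, limma adjusted p = 8.64e-04). The second probe was at 0.14 (limma adjusted p = 0.401), so the probes disagreed. The highest later value, 16.86, was replicate 7 of 12 weeks; the 3 version 8.1.1.1 arrays of 8 weeks averaged 16.36, the 4-week arrays 9.78. In Cy3 its correlation with the acinar level was 0.88 over 34 arrays, 0.92 within version 8.5.1.1 and 0.97 within version 8.1.1.1. Whether this probe reads Deaf1 RNA or another transcript was not tested. Disagreement between probes was common: of 532 genes with several called probes, 136 (25.6%) had calls in both directions. Fibp, a growth factor binding protein gene outside that count, had 1 probe called at -4.63 and another at 0.80, under the size limit.

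**Figure D5:**
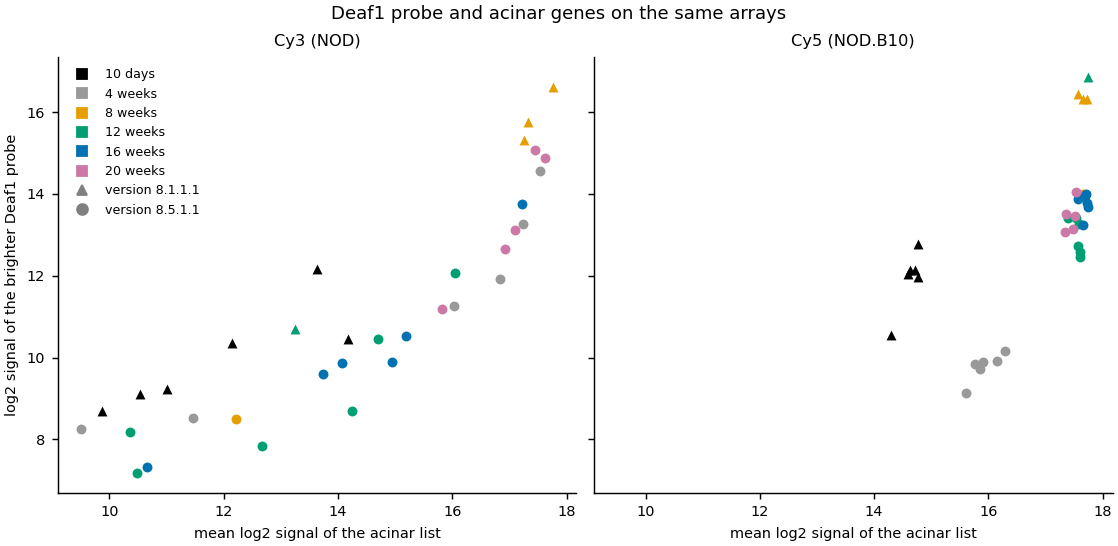
Level of the brighter Deaf1 probe (log2 signal) against the mean log2 signal of the acinar list on the same array, in Cy3 and in Cy5, coloured by age; triangles are Feature Extraction 8.1.1.1, circles 8.5.1.1. In Cy3 the points rise together (r = 0.88, 34 arrays); in Cy5 the 8- and 12-week triangles lie above the circles of their ages.

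Arrays of 8 weeks read with the software version of the 10-day arrays allow a reading within 1 version. They were read on another day than the 10-day arrays, so age and scan day stay confounded in it. For the liver list the 3 version 8.1.1.1 arrays of 8 weeks were at 8.71 to 8.77, for acinar genes at 17.57 to 17.72 and for class II genes at 12.67 to 12.83, against 12.80 to 13.39, 14.30 to 14.76 and 11.72 to 12.38 on the 10-day arrays in the 35-array normalisation. Plasma cell genes on those arrays were at 10.16 to 10.18, against 9.63 to 9.98 at 10 days. Cytotoxic genes were at 8.54 to 8.69 and overlapped the 10-day range of 8.41 to 8.67. Type I interferon genes, with a median difference of 0.66 at the later ages, were at 9.03 to 9.36 on the 8-week arrays, below the 10-day range of 9.45 to 9.70. Nerve genes, with a median difference of -0.48, were at 10.32 to 10.80, above the 10-day range of 9.65 to 10.26.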

How the data were processed

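Agilent whole mouse genome 2-colour arrays measured NOD (Cy3) against NOD.B10 (Cy5) pancreatic lymph node RNA. Per the file headers, the authors' Feature Extraction runs gave processed signal intensity per spot, background-subtracted and dye-normalised within the array. A Cy5 level thus depends in part on its Cy3 partner. The version named here is that of the grid placement step in the headers (8.1.1.1 or 8.5.1.1), while the submitters' processing notes name 8.5. The authors also deposited log10 ratios, NOD over NOD.B10 per the labels, equal to the negative of the scanner ratio on all arrays; they served as this check of direction only.

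Here, log2 Cy5 intensity was quantile normalised across 25 arrays after leaving out control and outlier-flagged spots and averaging spots of a probe. Probes well above background in Cy5 on at least 7 arrays were kept (31511 of 41174), then the brightest per gene (22417 genes, 17070 with a symbol). limma 3.58.1 in R 4.3.3 (lmFit, eBayes) compared 2 groups with Benjamini-Hochberg adjustment over all genes; calls needed adjusted p under 0.05 and a log2 difference of at least 1. A fit of 4 age means gave the F test among later ages, and the same 2-group fit was run on Cy3 and on Cy5 minus Cy3. The procedure was tested on simulated data. The number of arrays limits the precision.

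Members and the 41 gene lists (749 genes, 710 measured) were chosen with earlier results of these data known. Genes were named by rule: the 15 largest differences in each direction among well-measured, non-overlapping called genes, the 8 largest bounds, up to 4 called members per list, the 8 largest ranges among later ages, the 8 largest contrasts between channels in each direction, and 27 marker genes. Some genes that the rule names are not reported here. Further list members were named after their values were seen. Alternatives covered normalisation, background correction, filters, blocks, saturation and left-out arrays.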

Additional observations from a re-analysis of the deposited data

Results flagged for a closer look

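In groups of 4 to 10 arrays, an array stood apart from the others of its age in 21 of 56 tests of list levels and of the share of probes above background, where chance gives about 1 in 20. The tests of an age share its arrays and are not independent, so the count does not measure an excess over chance. The same 4 arrays account for all 21. Replicate 7 of 12 weeks (Feature Extraction 8.1.1.1) was low in the lists of liver (8.62), neutrophil (9.33), erythroid (11.13), MHC class II (12.88), B cell (11.52), T cell (11.37), plasma cell (10.29), matrix (10.26) and cell cycle genes (10.81), and had 69.5% of probes well above background. Replicate 2 of 16 weeks was low in erythroid (11.61), plasma cell (10.61), imprinted growth (8.55) and cell cycle genes (10.64). Replicate 7 of 10 days was low in liver (12.79), acinar (14.30), erythroid (12.00) and adipocyte genes (9.66). Replicate 4 of 20 weeks was high in MHC class II (14.13), adipocyte (12.10) and matrix genes (10.62). Without the first 3 of these, 5580 genes were called in place of 5238.

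The age means of 12, 16 and 20 weeks differed by limma's F test in Reg3a (range 3.58), Gcg (3.01), Ins2 (2.82), Ins1 (2.59), Reg3b (2.43), Mup1 (2.43), Chga (2.42) and Chgb (2.28). Without replicate 7 of 12 weeks and replicate 2 of 16 weeks the ranges were 3.64 for Reg3a, 3.05 for Gcg, 2.87 for Ins2 and 2.39 for Mup1.

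The change in Cy5 differed from that in Cy3, by limma's test of the difference, in Gprc5d (3.49), 4921534H16Rik (3.18), Dusp9 (2.73), Gal (2.72), Plch2 (2.41), Ncoa3 (2.36) and Ccr3 (2.25), and in Afp (-6.66), Fabp1 (-4.46), Serpinc1 (-4.03), Ahsg (-3.95), Fgb (-3.95), F2 (-3.94), Fbp1 (-3.90) and Ambp (-3.53). With the version block limma's adjusted p stayed under 0.05 for Plch2 (0.00759), Afp (0.00177), Fabp1 (0.0461), Serpinc1 (0.0199), Fgb (0.0424) and F2 (0.0437) among these genes. Plch2, Ncoa3 and Ccr3 each had another probe that was not called in Cy5.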

How the results depend on the processing

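The count of later-against-10-day calls was 5238. It was 1808 with normexp background correction, 2403 with probes well above background on all 25 arrays, 1793 with Feature Extraction version as a block, 1036 with scan day as a random block, 1319 with version 8.1.1.1 alone (1 later array, assumed to vary like the others), 3425 with the version block over 35 arrays, 13646 by adjusted p alone and 955 at a log2 difference of at least 2. The all-25 filter made 68.5% of calls higher against 44.6%. Leaving out 1 array gave 5132 to 5595; for 12 weeks 4595 to 5874, for 16 weeks 5573 to 5910, for 20 weeks 5398 to 5894, for the later-age F test 136 to 210, and for Cy5 minus Cy3 670 to 811. The F test count of 154 became 44 with normexp, 256 with scanner as a block and 64 with the all-25 filter. The Cy5 minus Cy3 count of 738 became 200 with normexp and loess and 397 with the version block, and the Cy3 count of 4932 became 216 with that block. Causes were not tested, except that filters and left-out arrays test fewer genes or arrays. The replicate block gave 4877 calls. In their deviations from the age means, same-numbered arrays of different ages correlated at a median of 0.03 (5 of 34 pairs over 0.1). For arrays of different numbers the median was -0.01 (31 of 199 pairs over 0.1). No pairing by number was thus visible in Cy5, where arrays may share a pooled RNA.

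Of 149 named genes called, 142 kept their direction, and 57 direction and call, under those of 51 alternatives that gave them a value. The reversals of genes called in either setting, and of list medians of at least 0.5 in size, were Hbb-bt (1.21) and Rps27a (0.12) by 75th percentile scaling; by median centring Hbb-bt (1.66), Rps27a (0.58), Ccl19 (1.02), H2-K1 (1.43), Hba-a1 (0.10), and the list medians of erythroid (0.07), muscle (0.08) and cell cycle genes (0.08); lymphoid precursors with the all-25 filter (0.02); at 20 weeks alone Chga (-0.17), Chgb (-0.46), Gcg (-0.66), Ins1 (-0.15), Reg3a (-0.06) and the islet list median (-0.21); and Cd3e with the version block over 35 arrays (2.22). Of the lists with smaller medians, 13 changed sign under at least 1 alternative. Signal over background limits dim genes, and saturation acinar genes.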

Other observations

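For the counts below, 10.4% of all genes were higher and 13.0% lower, and 2.04% and 2.06% also with the version block. In a short list 1 or 2 calls are near that background. Macrophage genes were higher in 5 of 18 and lower in 2. With the version block 1 of them also passed, Siglec1 (1.92), a marker of the macrophages that line lymph node sinuses. A second Siglec1 probe was not called (0.10). Of 13 dendritic cell genes 5 were higher and 1 lower, with none also called under the block; the chemokine receptor gene Ccr7 was at 1.83, and at 0.94 with the block. Regulatory T cell genes were higher in 3 of 11 and lower in 1, germinal centre genes higher in 2 of 6 and lower in 1, and mast cell genes higher in 1 of 11 and lower in 2, none also with the block. Of 24 type I interferon genes 6 were higher, none of them also with the block. The 1 lower gene, Rsad2 (viperin, -1.42), also passed with it, while its other probes were not called (0.31 and -0.44). Of 13 interferon-gamma genes 3 were higher and 1 lower (2 and 1 also with the block), among them the T cell chemokine genes Cxcl9 (1.65) and Cxcl10 (-1.99), which moved in opposite directions.

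Immediate early genes were higher in 6 of 23, 2 also with the block, and lower in 2 without it only, with Nr4a1, a nuclear receptor induced by antigen receptor signalling, at 1.76 and at 1.85 with the block. Heat shock genes were higher in 1 of 10 and lower in 1, neither with the block, and circadian genes higher in 1 of 16, Per1 (2.28), also with the block, and lower in 2 without it only. Lymphatic endothelium genes were lower in 2 of 8 (Reln, -1.14), 1 also with the block. Node stroma genes were higher in 1 of 13 and lower in 3 (Ltbr, the lymphotoxin beta receptor, -1.94), of which 1 and 2 also passed with the block. Muscle genes were lower in 3 of 13, 2 also with the block, and nerve genes in 3 of 11, none with the block. Ductal epithelium genes were higher in 4 of 13 and lower in 2 (Krt18, 1.83), none with the block. Intestine genes were higher in 1 of 10, Reg3b, without the block only, and lower in 3 (Apoa4, -1.39), 2 also with it. A dimmer Apoa4 probe was not called (-0.62). Housekeeping genes were lower in 2 of 12, neither with the block.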
